A study of Mus musculus with 6 samples.

Results

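Fibronectin (Fn1), tenascins C and XB (Tnc, Tnxb), thrombospondins 1 to 3 (Thbs1, Thbs2, Thbs3), cartilage oligomeric matrix protein (Comp), periostin (Postn), osteonectin (Sparc) and cartilage intermediate layer protein (Cilp) are secreted glycoproteins of the matrix around cells. These 10 genes were picked by name from the 49548 genes of the deposited table, and 9 of them, all but Tnxb, reached at least 10 normalised counts in at least 3 libraries. The cells were synovial fibroblasts (SFs) from the ankle joints of hTNFtg mice, which carry a human TNF transgene and develop inflammatory arthritis. Per the study's methods, the mice were of the CBA C57BL/6J background and 8 weeks old, and CD45+ cells were removed from the cultures at passage 1. All 6 libraries carried the transgene, so no wild-type level is available here. The untreated group held 3 libraries and the treated group 3 libraries from SFs kept for 48 hours in 500 μM amisulpride, an antipsychotic drug and dopamine receptor antagonist. The labels say that the untreated cells received nothing, whereas the methods speak of vehicle. The methods call the replicates biological but do not say how many mice each culture came from.

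Matrix glycoproteins of this kind connect cells to the collagen network or adjust how firmly cells hold on to it. Fibronectin is the main adhesive glycoprotein that fibroblasts assemble into fibrils, and integrins bind it. Matricellular proteins, among them tenascins, thrombospondins, periostin and osteonectin, act less as scaffolding than as signals to the cell, and many of them appear during tissue repair and inflammation. Fibronectin and tenascin C are abundant in the inflamed synovium of rheumatoid arthritis, and fragments of Comp released from cartilage serve as a marker of joint damage.

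The promoters of Postn, Tnc and Thbs2 are printed because their transcripts, along with that of Fn1, were highest in replicate 3 of both groups, as described further on. These 3 were chosen after their values were seen. Each line runs 5′ to 3′ on the gene's own strand from 250 bases before to 50 bases after the start that RefSeq gives on build GRCm38.p6, and capitals mark a TATAAA motif read on either strand. The window is chr3:54360857-54361156 on the plus strand for Postn, chr4:64046966-64047265 on the minus strand for Tnc and chr17:14694213-14694512 on the minus strand for Thbs2.
Postn: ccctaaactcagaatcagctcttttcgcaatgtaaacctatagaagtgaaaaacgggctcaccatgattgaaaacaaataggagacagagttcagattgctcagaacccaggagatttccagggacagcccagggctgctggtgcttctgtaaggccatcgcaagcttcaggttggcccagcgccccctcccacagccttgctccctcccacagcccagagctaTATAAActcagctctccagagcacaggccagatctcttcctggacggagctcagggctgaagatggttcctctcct
Tnc: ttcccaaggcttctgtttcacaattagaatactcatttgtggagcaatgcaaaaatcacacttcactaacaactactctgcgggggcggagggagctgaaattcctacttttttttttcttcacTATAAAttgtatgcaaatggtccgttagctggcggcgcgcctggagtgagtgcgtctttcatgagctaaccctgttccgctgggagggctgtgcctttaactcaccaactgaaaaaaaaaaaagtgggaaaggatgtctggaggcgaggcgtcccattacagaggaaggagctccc
Thbs2: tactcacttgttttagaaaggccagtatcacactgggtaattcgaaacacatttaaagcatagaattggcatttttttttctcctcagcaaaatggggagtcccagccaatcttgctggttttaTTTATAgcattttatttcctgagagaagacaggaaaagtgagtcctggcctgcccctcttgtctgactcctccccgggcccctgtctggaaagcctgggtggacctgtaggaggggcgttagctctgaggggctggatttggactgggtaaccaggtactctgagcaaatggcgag
The motif began at base -26 from the start in Postn, where it reads TATAAA, and at base -126 in Tnc. In Thbs2 the reverse form, TTTATA, began at base -126. A TATAAA motif on either strand was present in 13.6% of 32851 RefSeq promoter windows of this length. RefSeq entries were matched for 7 of the 10 genes, the others being Tnxb, Thbs3, Sparc and Cilp, and none was matched for Fn1, Thbs1 and Comp. The AP-1 motif TGAGTCA or TGACTCA, present in 5.2% of all windows, was found only in the Tnxb window among these, at base -55. The cAMP response element (CRE), in its full palindromic form in 1.79% of windows, and the TEAD motif GGAATG or its reverse CATTCC, in 14.7% of windows, were found in none of the windows of these 7 genes. Postn and Tnc have a second RefSeq start each. The second Tnc window overlaps the first and holds the same TATAAA, and the second Postn window, upstream, holds none of the 4 motifs.

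The libraries summed to 3832980 to 4504242 normalised counts, that is, read counts as normalised by the authors, which stand in the table as whole numbers. The steps between low values put 5 libraries at 2.52 to 4.71 M reads, with amisulpride replicate 3 the shallowest, and the step of untreated replicate 1 could not be found. Amisulpride replicate 3 also stood apart on the first principal component (37.1% of the variance), at 73.9 against -38.2 to 10.4 for the other 5 libraries. All 15 synovial fibroblast markers passed the filter on low values. Endothelial markers were near 0 (summed level 4 to 14 untreated and 2 to 17 amisulpride, with Cdh5, Cldn5 and Tie1 at 0). Of the defining cartilage genes, Col9a1, Matn1 and Cytl1 were at 0 in all libraries. Myeloid markers summed to 2428 to 4181 in untreated and 2286 to 4197 in amisulpride libraries, although CD45+ cells had been depleted. Most of that was Lyz2, at 1733 to 3046 and 1394 to 3287. Ptprc, the gene of CD45, had 12 to 38 in untreated and 5 to 23 in amisulpride libraries.

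The comparison asked whether amisulpride alters the transcripts of these glycoproteins in arthritic SFs. No difference beyond the spread between replicates was found for any of the 9 genes tested. With limma on log2(normalised count + 1) and Benjamini-Hochberg adjustment, 0 of 9 had an adjusted p under 0.05, against 0.285% of the 12614 genes tested (36 genes, 12 higher and 24 lower). At an unadjusted p under 0.05 the count was also 0 of 9, against 10.9% of all genes. The study's own thresholds asked for a log2 fold change of 1 or more in either direction together with an unadjusted p under 0.05, and 0 of 9 passed them, against 5.7% of all genes. The values of the groups overlapped for all 9, and they did not overlap for 16.5% of all genes. With only 9 genes, a count of 0 lies near each of these shares and does not set the genes apart. The fold changes were positive for 6 genes and negative for 3, with a median of 0.23 on the log2 scale beside 0.002 over all genes tested. With the replicate number as a block, 0 of 9 again had an adjusted p under 0.05, against 2.08% of all genes (263 genes).

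**Figure D1:**
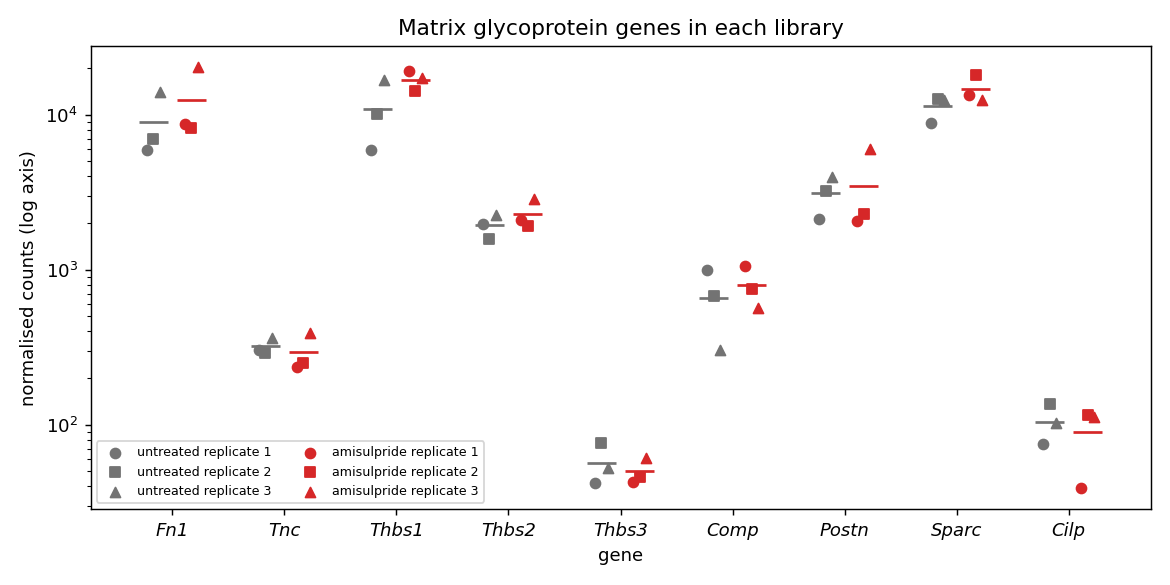
Normalised counts (log axis) of the 9 glycoprotein genes tested, with 1 point per library, marker shape giving the replicate number, grey for untreated and red for amisulpride, and a horizontal line at each group's mean. Points of the groups overlap for every gene, and replicate 3, drawn as a triangle, lies highest in both groups for Fn1, Tnc, Thbs2 and Postn and lowest in both for Comp.

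Fn1 (ENSMUSG00000026193, chr1:71585520-71653200, minus strand, mm10) encodes fibronectin. Its normalised counts were 5956, 7019 and 14008 in untreated replicates 1 to 3 and 8707, 8222 and 20335 in amisulpride replicates 1 to 3. Replicate 3 was far above the others in each group, and the untreated replicate 3 library exceeded 2 of the 3 treated ones. The group means were 8994 ± 4374 and 12421 ± 6858 (SD, n = 3), and the log2 fold change was 0.44 ± 0.43 (SE), with a 95% confidence interval of -0.50 to 1.37 (limma, adjusted p = 0.752). Within pairs of the same replicate number the amisulpride library was higher each time, by 1.46-, 1.17- and 1.45-fold. Without amisulpride replicate 3 the log2 fold change was 0.02 and without untreated replicate 3 it was 0.81 (adjusted p between 0.549 and 0.994 over all alternatives). Reads from the 3′ end cannot separate the splice forms of fibronectin. Fn1 shares 8.73% of the 50-base words at its transcript ends with Apol7d on the opposite strand, which had at most 6 normalised counts.

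The tenascins are large multi-armed glycoproteins that loosen the hold of cells on fibronectin. Tnc (ENSMUSG00000028364, chr4:63959785-64047015, minus strand) had 305, 291 and 365 normalised counts in untreated and 237, 250 and 392 in amisulpride libraries. The lowest and the highest value were both in treated libraries. Its log2 fold change was -0.16 ± 0.27, with an interval of -0.75 to 0.43 (adjusted p = 0.859), so changes larger than 2-fold in either direction lie outside it. Without amisulpride replicate 3 it was -0.39. Tnxb (ENSMUSG00000033327, chr17:34670535-34719815, plus strand), whose product binds collagen fibrils and whose loss causes a form of Ehlers-Danlos syndrome in people, had 0, 1 and 0 normalised counts in untreated libraries and 0 in all amisulpride libraries. A count of 0 allows up to 3 reads, which corresponds to 2.5 to 5.36 normalised counts in the 5 libraries with a known step, counting error only, so Tnxb was not detectable at this depth and was not tested. It shares 16.1% of the 50-base words at its transcript ends with the pseudogene Tnxa, itself at 0 in all 6 libraries.

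Thrombospondins 1 and 2 form trimers that bind the receptors CD36 and CD47 and restrain blood vessel growth, and thrombospondin 1 also activates latent TGF-beta. Thbs1 (ENSMUSG00000040152, chr2:118111876-118127133, plus strand) had 5885, 10044 and 16867 normalised counts in untreated and 19191, 14170 and 17248 in amisulpride libraries. The untreated libraries spread over a wide range, the treated ones over a narrow one, and the single overlap was untreated replicate 3 above amisulpride replicate 2. The means were 10932 ± 5545 and 16870 ± 2532 (SD, n = 3). The log2 fold change of 0.74 ± 0.38, the furthest from 0 among the 9 genes, had an interval of -0.10 to 1.59 (unadjusted p = 0.0778, adjusted p = 0.518). Within same-number pairs the amisulpride library was 3.26-, 1.41- and 1.02-fold the untreated one. With the replicate block the interval was -0.01 to 1.5 (unadjusted p = 0.0519, adjusted p = 0.349).

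The Thbs1 value depended on untreated replicates 1 and 3. Without that library the log2 fold change was 1.12 (unadjusted p = 0.016), which passes the study's thresholds, making 1 of 9 genes against 4.85% of the genes tested in that fit. Without untreated replicate 1 it was 0.36. The lowest adjusted p of Thbs1 in limma over all 15 alternatives was 0.349. Thbs2 (ENSMUSG00000023885, chr17:14665500-14694262, minus strand) had 1986, 1586 and 2256 normalised counts in untreated and 2093, 1927 and 2865 in amisulpride libraries. Each treated library was somewhat above its untreated partner, by 1.05-, 1.22- and 1.27-fold, but the untreated replicate 3 library exceeded 2 treated ones. The log2 fold change was 0.23 ± 0.26, with an interval of -0.35 to 0.81 (adjusted p = 0.787), which leaves out 2-fold changes either way. Leaving out amisulpride replicate 3 gave 0.06, untreated replicate 2 0.09, and untreated replicate 3 or amisulpride replicate 2 0.35.

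Thrombospondin 3 and Comp belong to the subgroup of thrombospondins that assemble as pentamers. Thbs3 (ENSMUSG00000028047, chr3:89215180-89226837, plus strand) had 42, 76 and 53 normalised counts in untreated and 43, 46 and 61 in amisulpride libraries. Its groups covered nearly the same range, apart from untreated replicate 2. The log2 fold change was -0.16 ± 0.33, with an interval of -0.88 to 0.56 (adjusted p = 0.887). Without untreated replicate 2 it was 0.07. The gene overlaps Mtx1 on the opposite strand, which had 259, 197 and 204 normalised counts in untreated and 231, 261 and 131 in amisulpride libraries. Whether counting used the strand is not given in the sources used here. The last 500 bases of the Thbs3 transcripts shared 0 of 870 words of 50 bases with other genes, on either strand. Whether Mtx1 reads fell elsewhere in Thbs3 was not tested.

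Comp (ENSMUSG00000031849, chr8:70373558-70382066, plus strand), which binds collagens in cartilage and tendon, had 1003, 675 and 303 normalised counts in untreated and 1051, 756 and 571 in amisulpride libraries. The order of the replicate numbers was the same in both groups, with replicate 1 highest and replicate 3 lowest. The log2 fold change was 0.38 ± 0.40, with an interval of -0.50 to 1.26 (adjusted p = 0.773). Treated libraries were 1.05-, 1.12- and 1.88-fold their untreated partners. Without untreated replicate 3 the log2 fold change was -0.10. Tendon cells also express Comp, and 5 tendon markers summed to 2917 to 6094 normalised counts in untreated and 4692 to 8627 in amisulpride libraries. Most of that was Fmod, at 2365 to 5238 and 4069 to 7467. Tnmd had 229 to 719 and 498 to 977, Scx 64 to 124 and 100 to 151, and Mkx 23 to 71 and 20 to 63. Kera had at most 2. The part of tendon cells in the Comp level was not tested.

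Periostin and osteonectin bind collagen and influence how its fibrils form. Postn (ENSMUSG00000027750, chr3:54361109-54391037, plus strand) had 2119, 3229 and 3992 normalised counts in untreated and 2051, 2298 and 6007 in amisulpride libraries. The treated libraries held both the lowest and the highest value, and replicate 3 was highest in both groups. For Postn the log2 fold change was 0.02 ± 0.41, with an interval of -0.87 to 0.91 (adjusted p = 0.991). The direction was not stable, being -0.47 without amisulpride replicate 3 and 0.30 without amisulpride replicate 1. Sparc (ENSMUSG00000018593, chr11:55394500-55423183, minus strand) had 8843, 12648 and 12528 normalised counts in untreated and 13433, 18008 and 12530 in amisulpride libraries. The first 2 pairs differed by 1.52- and 1.42-fold, and the replicate 3 pair by 2 normalised counts. Its log2 fold change was 0.37 ± 0.30, with an interval of -0.30 to 1.04 (adjusted p = 0.708). The value was 0.20 without untreated replicate 1, 0.21 without amisulpride replicate 2 and 0.16 with quantile normalisation.

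Cilp (ENSMUSG00000042254, chr9:65265180-65280605, plus strand), a glycoprotein of the middle layers of articular cartilage that binds TGF-beta, had 75, 137 and 103 normalised counts in untreated and 39, 116 and 113 in amisulpride libraries. The lowest level was in amisulpride replicate 1, and the other treated libraries lay within the untreated range. Its log2 fold change was -0.34 ± 0.42, with an interval of -1.27 to 0.58 (adjusted p = 0.804). Without amisulpride replicate 1 it was 0.17. Col2a1, Acan and the other cartilage genes that would mark chondrocytes did not pass the filter, apart from Sox9, and the markers summed to 266 to 296 normalised counts in untreated and 250 to 564 in amisulpride libraries. In bulk samples such as these, fewer cells of a type and less RNA per cell cannot be told apart.

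How large a change the data leave room for differed among the genes. For 4 of 9, Tnc, Thbs2, Thbs3 and Postn, the 95% interval lay within a 2-fold change in either direction, and with the replicate block this held for 6 of 9, with Comp and Cilp added. The upper bounds were 2-fold or more for Fn1, Thbs1 and Sparc in both fits, and their intervals all included 0. In all 3 same-number pairs the amisulpride library was the higher one for 5 of 9 genes, namely Fn1, Thbs1, Thbs2, Sparc and Comp, against 16.9% of all genes tested, and it was the lower one in all 3 for 0 of 9, against 17.8%. Counting such pairs was chosen after the values were seen. The replicate 3 pair of Sparc, with its near-equal values, counted as higher. The median log2 difference of the 9 genes was 0.07, 0.16 and 0.20 in pairs 1, 2 and 3.

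**Figure D2:**
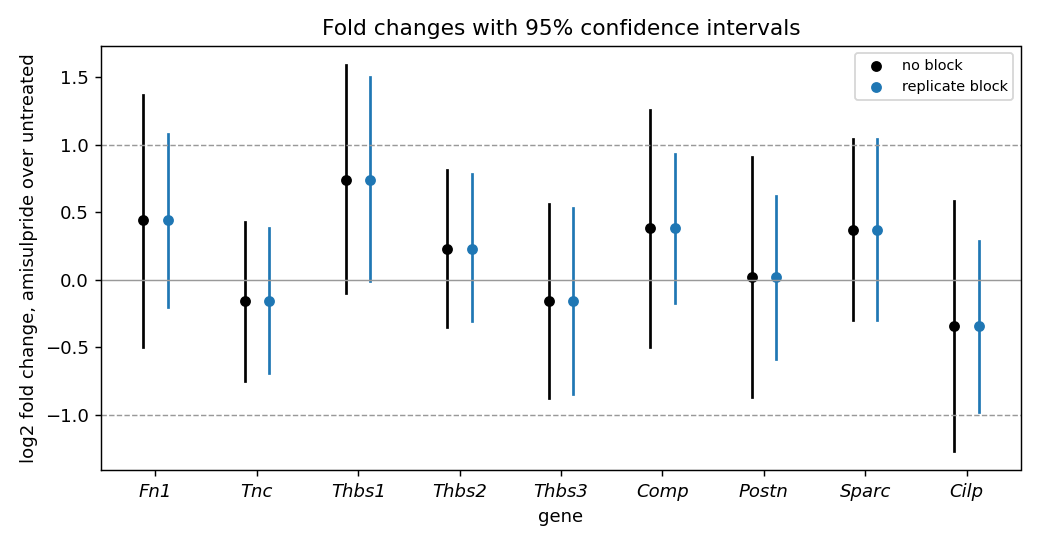
Log2 fold change of each glycoprotein gene tested, amisulpride over untreated, as a point with its 95% confidence interval from limma, in black without and in blue with the replicate number as a block. Dashed lines mark 2-fold changes, and every interval crosses 0, with Thbs1 under the block reaching down to -0.01.

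The spread within groups had a pattern of its own, since libraries with the same replicate number resembled each other. Over all genes tested, deviations from the group mean correlated at 0.201 to 0.240 for same-number libraries, across genes and not replicates, and at -0.149 to -0.0777 for libraries with different numbers. Deviations within a group sum to 0, so the negative values largely follow from the positive ones and are not separate evidence. What a number stands for is not stated in the labels. A term for the replicate number had an unadjusted p under 0.05 for 4 of the 9 glycoprotein genes, Fn1, Postn, Comp and Cilp, against 11.7% of all genes, and an adjusted p under 0.05 for 0 of 9, against 0.349%. This test was added after the values were seen.

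That term is 1 joint limma test of all 3 numbers, and single differences between numbers were not tested. It gave Fn1 an adjusted p of 0.212, Postn 0.232, Comp 0.163 and Cilp 0.255. In the fit Fn1 and Postn were both higher in replicate 3 than in replicate 1, by 1.23 on the log2 scale for each. Comp ran the other way, with a log2 difference of -1.30. Cilp was higher in replicates 2 and 3 than in replicate 1, by 1.2 and 0.98. Fn1, Tnc, Thbs2 and Postn were highest in replicate 3 of both groups, making 4 of 9 genes against 13.2% of all genes tested, and Comp was the 1 gene of 9 lowest in replicate 3 of both groups, against 13.4%. For Fn1 the log2 difference between replicates 3 and 1 exceeded the 0.44 between the groups, and the same held for Postn, Comp and Cilp in absolute size.

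**Figure D3:**
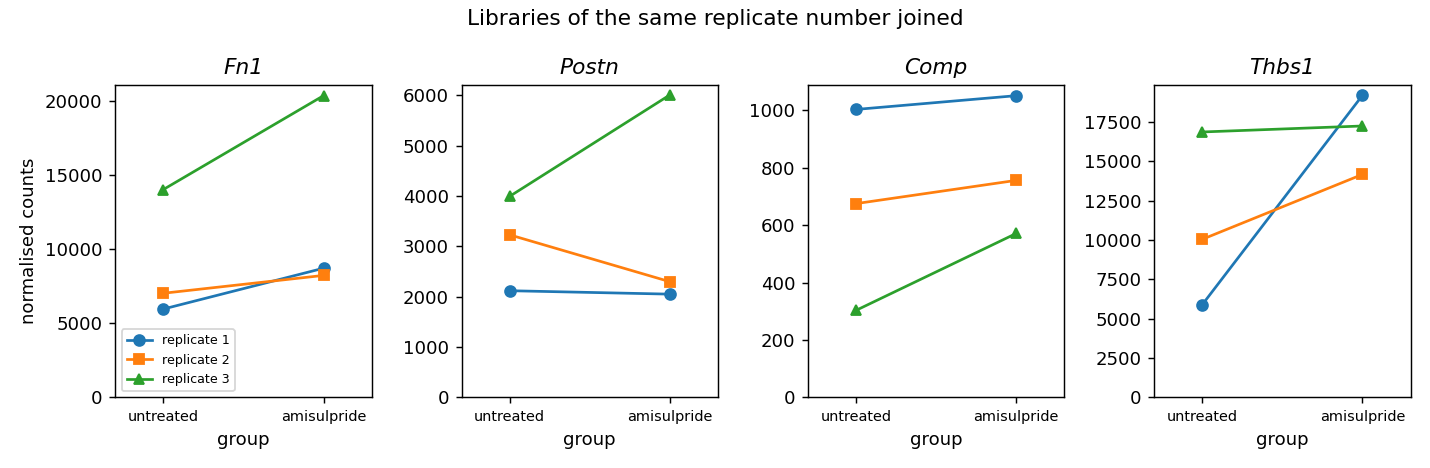
Normalised counts of Fn1, Postn, Comp and Thbs1, with a line joining the untreated and the amisulpride library of each replicate number (blue 1, orange 2, green 3), on a linear axis from 0. Replicate 3 lies on top for Fn1 and Postn and at the bottom for Comp, while the Thbs1 lines converge on the treated side.

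Some relatives of these genes passed the tests. Of 60 related glycoproteins, 43 were tested, and 5 rose and 5 fell past the study's thresholds (5.7% of all genes passed, in either direction), with a median log2 fold change of -0.03. With limma, 2 had an adjusted p under 0.05 (0.285% of all genes), and 5 had one with the replicate block (2.08%). The list was chosen with earlier results of these data known, so such counts are no evidence about the list as a whole. Spp1, osteopontin, which binds integrins and CD44, had 3349, 4630 and 4912 normalised counts in untreated and 791, 862 and 1339 in amisulpride libraries. It fell by 2.13 on the log2 scale (SE 0.28, adjusted p = 0.013), with no overlap. Tnn, tenascin N, had 132, 148 and 183 normalised counts in untreated and 36, 37 and 16 in amisulpride libraries and fell by 2.42 (SE 0.36, adjusted p = 0.0195). Both passed the study's thresholds under all 15 alternatives, but the adjusted p was less stable. For Spp1 it ran from 0.000527 to 0.156 and was not under 0.05 without the trend (0.0505) and in 5 of 6 leave-outs, all but that of amisulpride replicate 3. For Tnn it ran from 0.00135 to 0.169 and was not under 0.05 without the trend (0.0528) and in 4 of 6 leave-outs, those of each untreated library and of amisulpride replicate 2.

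Nov (CCN3), a matricellular protein of the CCN family, had 147, 194 and 65 normalised counts in untreated and 543, 589 and 378 in amisulpride libraries, a log2 fold change of 2.0 (adjusted p = 0.0608, and 0.00102 with the replicate block). Mfap2, a protein of microfibrils, fell past the thresholds by 1.45 (adjusted p = 0.0965, and 0.0136 with the block). Fndc1 and Fbln7 rose past them, by 1.18 (adjusted p = 0.229, and 0.0255 with the block) and 1.26 (adjusted p = 0.235). Fndc1 was below them at 0.92 without amisulpride replicate 3 and 0.90 without untreated replicate 1, and Fbln7 at 0.92 without untreated replicate 3. Ctgf and Matn4 also rose, and Emilin2 and Tgfbi, a close relative of periostin, fell past the same thresholds. Each of these lost that call in 1 to 3 leave-outs: Ctgf without amisulpride replicate 3 (0.70), Matn4 without untreated replicate 2 (1.55), Tgfbi without amisulpride replicate 3 (-0.73) or untreated replicate 1 (-0.83), and Emilin2 without amisulpride replicate 1 (-0.98) or 2 (-0.74) or untreated replicate 1 (-0.81). Matn4 was low, with 11, 4 and 5 normalised counts in untreated and 39, 37 and 9 in amisulpride libraries. It passed the filter mostly through the treated group, which favoured a rise, and only 11 of 15 alternatives could test it. Mfge8 and Wisp2 had an unadjusted p under 0.05 with smaller differences, of -0.60 and -0.66.

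Each member of a related pair was also set against the other within a library, for 2 pairs chosen after their values were seen. The log2 ratio of Tnn to Tnc was -1.20, -0.97 and -0.99 in untreated and -2.69, -2.72 and -4.53 in amisulpride libraries. It differed by -2.26 between the group means with no overlap, and the exact two-sided permutation p of 0.1 is the smallest that 3 against 3 libraries can give. The log2 fold changes were -2.42 for Tnn and -0.16 for Tnc, so the ratio mostly restates the fall of Tnn and is not separate evidence. The log2 ratio of Tgfbi to Postn differed by -1.11 (exact permutation p = 0.5), with values of -2.89, -4.21 and -4.67 in untreated and -4.36, -4.01 and -6.75 in amisulpride libraries that overlapped.

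**Figure D4:**
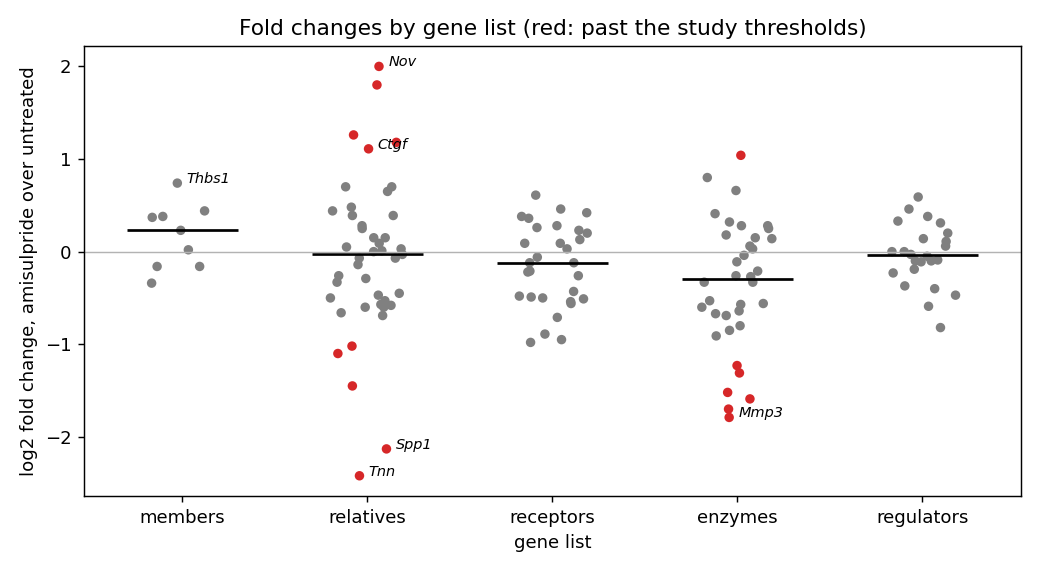
Log2 fold changes, amisulpride over untreated, of the genes tested in each list (1 point per gene, black line at the median, red past the study's thresholds): 9 glycoprotein genes, 43 relatives, 30 receptors, 36 enzymes and 24 regulators. Red points appear among the relatives and the enzymes, and among the glycoprotein genes Thbs1 lies highest at 0.74.

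Receptors for these glycoproteins did not pass the thresholds. Of 40 listed integrins, syndecans, thrombospondin receptors and adhesion components, 30 were tested. The study's thresholds were passed by 0 of 30, against 5.7% of all genes, and 0 had an adjusted p under 0.05, against 0.285%. An unadjusted p under 0.05 was found for 1, against 10.9% of all genes. That gene was Ddr1, a collagen receptor, with 512, 445 and 431 normalised counts in untreated and 395, 232 and 168 in amisulpride libraries, a log2 fold change of -0.89 (adjusted p = 0.294). Without amisulpride replicate 1 it was -1.22 and passed the thresholds. The median over the list was -0.12.

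Among enzymes that cut, cross-link or fold these proteins, 36 of 39 listed were tested, and the median log2 fold change was -0.30. Of these 36, 1 rose and 6 fell past the study's thresholds (5.7% of all genes passed, in either direction), 13 had an unadjusted p under 0.05 (10.9%), 0 had an adjusted p under 0.05 with limma (0.285%) and 6 had one with the replicate block (2.08%). This list too was chosen with earlier results of these data known, and the study had already reported a decrease of Mmp3. The counts are therefore no evidence about the list as a whole. Mmp3, stromelysin 1, a metalloproteinase that cleaves fibronectin, had 4166, 5120 and 2530 normalised counts in untreated and 666, 1118 and 1745 in amisulpride libraries, a fall of 1.79 (adjusted p = 0.0764, and 0.0091 with the block). Mmp3 and Adamts4, at -1.52, passed the thresholds under every alternative run. The others past them lost the call when some single libraries were left out. Mmp13 went from -1.31 to -0.91 and -1.03 without amisulpride replicate 1 and untreated replicate 2, and Mmp9 from -1.70 to -1.04 and -1.46 without amisulpride replicate 2 and untreated replicate 1. Htra1 went from -1.23 to -1.03 and -0.72 without amisulpride replicate 1 and untreated replicate 3. Tgm2, a cross-linking enzyme, went from 1.04 to 0.85 and 0.79 without amisulpride replicate 2 and untreated replicate 1. Adamts7, at -1.59, lost the call without amisulpride replicate 1 (-1.64) or 3 (-0.90) and without untreated replicate 2 (-1.28) or 3 (-1.21), and also under the stricter filter and without the trend. Loxl3, Adam19, Bmp1, Plat, Loxl1 and Mmp14 had an unadjusted p under 0.05 and log2 fold changes between -0.91 and -0.64.

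Of 26 listed regulators in TGF-beta signalling and in the mechanical and serum response, 24 were tested, and the median was -0.04. The study's thresholds were passed by 0 of 24, against 5.7% of all genes, and 1 had an unadjusted p under 0.05, against 10.9%. That gene was Mkl1, a cofactor of serum response factor (log2 fold change -0.82, adjusted p = 0.415). It passed the thresholds without amisulpride replicate 1 (-1.03) or untreated replicate 2 (-1.04).

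Markers of other cells were read beside these genes. Of 8 pericyte and smooth muscle markers 5 were tested. Acta2, Cnn1 and Mcam fell past the study's thresholds, with log2 fold changes of -1.43, -4.09 and -1.37 (adjusted p = 0.225, 0.0652 and 0.0764, and 0.0142, 0.00021 and 0.0191 with the block), and Acta2, at -0.93, no longer passed without amisulpride replicate 2. Cnn1 had 23, 1 and 27 normalised counts in amisulpride libraries and -3.45 with a pseudocount of 5, so the size of its fall is uncertain. The other 2 of the 5 markers tested did not pass, with 0.21 for Cspg4 and -0.08 for Notch3. All 8 summed to 5495 to 10014 normalised counts in untreated and 1446 to 4851 in amisulpride libraries, most of it Acta2, which also marks activated fibroblasts. Myh11 and Des, which define smooth muscle, were below the filter, with at most 9 normalised counts. Of 12 myeloid markers, 5 had positive and 7 negative fold changes, with a median of -0.14. Cd14 fell past the thresholds by 1.74 (adjusted p = 0.144, and 0.012 with the block), and Csf1r by 1.01 (adjusted p = 0.456), a call lost under 8 of 15 alternatives, among them each leave-out but that of amisulpride replicate 3 (-0.53 to -1.15 in those 5). Adgre1, C1qb and Cd68 had 0.83, 0.75 and 0.31 and did not pass. Ptprc, at -1.16, did not pass either (limma, unadjusted p = 0.104). Of the 15 synovial fibroblast markers S100a4 fell past the thresholds, by 1.31 (adjusted p = 0.117, and 0.0459 with the block). Prg4 fell by 0.92 with no overlap, short of the thresholds (limma, unadjusted p = 0.00924, adjusted p = 0.251), and passed them with library weights (-1.07). Fold changes were positive for 9 of the 15, with a median of 0.18. Of 7 osteoblast markers Alpl alone was tested, with 63, 21 and 28 normalised counts in untreated and 8, 4 and 5 in amisulpride libraries. It passed the filter only through the untreated group, which favoured a fall in advance. Its log2 fold change was -2.41 (limma, adjusted p = 0.0925, and 0.0148 with the block). The low treated values leave the size of the fall uncertain, and only 11 of 15 alternatives could test the gene. The part of these cell types in the levels of the glycoprotein genes was not tested.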

How the data were processed

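RNA was sequenced from transcript 3′ ends (QuantSeq, Ion Proton). The authors mapped reads to mm10 with TopHat2 and Bowtie2, counted them per gene with GenomicRanges, normalised the counts and tested them with DESeq, through metaseqr, with versions not given in the sources used here. The unit is a score: read counts after the authors' normalisation, deposited as whole numbers, so no model of raw counts was used. The authors' own fold changes and p-values, and 12 columns that repeat these libraries on other scales, were left aside.

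For each gene the 2 groups were set against each other by limma (3.58.1, R 4.3.3) on log2(value + 1), with moderation along the mean-variance trend (prior degrees of freedom 7.31), two-sided, over genes with at least 10 in at least 3 libraries. This scale understates the change of low genes. Benjamini-Hochberg adjustment ran over all 12614 genes. Levels were compared within genes only. In 5 libraries low values fell on multiples of what 1 read is worth, which gave their depth. In untreated replicate 1 no such step was found.

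The genes and gene lists were chosen with earlier results of these data known. Named were all 10 genes and, of each list, the genes with an unadjusted p under 0.05. Values were planned for up to 6 per list past the study's thresholds, and values of further genes were given as well. Other genes were named after their values were seen. Same-number libraries deviated together (r of 0.201 to 0.240, all over 0.1), so the replicate number was treated as pairing them in the block fit. The main fit left the replicate number out, and values not marked as from the block do not account for pairing. That pairing comes from the data, as the labels give the numbers but not what they stand for. No 2 libraries were identical. Alternatives were 2 other pseudocounts, 2 other filters, 2 other scalings, the block, library weights, no trend and each library left out.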

Additional observations from a re-analysis of the deposited data

How the results depend on the processing

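Each result was recomputed under 15 alternatives. Genes with an adjusted p under 0.05 numbered 36, and 57 with a pseudocount of 5 or with no filter, 66 with quantile normalisation, 195 with library weights and 263 with the replicate block, which pairs the libraries by number. They ranged from 0 to 120 with 1 library left out, being 120 without amisulpride replicate 3 and 0 without untreated replicate 2 or 3, where 1083 and 911 genes had an unadjusted p under 0.05 in limma. The block changed no call among the 9 glycoprotein genes. Of these, 0 passed the study's thresholds under 14 alternatives and 1, Thbs1, without untreated replicate 3. Their median log2 fold change of 0.23 was 0.13 with no filter, where Tnxb enters, 0.11 with quantile normalisation, 0.05 with library weights, and 0.02 to 0.29 with 1 library left out, lowest without amisulpride replicate 3 and 0.09 without untreated replicate 2. Postn turned negative at -0.07 with quantile normalisation, -0.39 with library weights, and -0.24 and -0.47 without untreated replicate 1 and amisulpride replicate 3. With 1 library left out, Postn ranged from -0.47 to 0.30, Thbs3 from -0.35 to 0.07 (without untreated replicate 2), Comp from -0.10 (without untreated replicate 3) to 0.76 and Cilp from -0.61 to 0.17 (without amisulpride replicate 1). The cause of these shifts was not tested. Of 652 values for single genes, 596 kept direction and side of the study's thresholds, 36 fell short of them, 13 newly passed and 7 reversed. Depth limits Tnxb, which could not be told from 0, and the smallest exact permutation p at 3 against 3 libraries is 0.1. Tests measure the spread between these libraries, whose independence rests on the methods' wording alone.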
